A study of Mus musculus with 72 samples.

Results

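The complement and coagulation factors of the mouse liver were followed across diet, sex and circadian time, and in the suprachiasmatic nucleus (SCN) where they were measured. The 44 genes were chosen by symbol from a list of complement components, clotting factors, their inhibitors and the enzymes of fibrinolysis. The liver table held 43 of them among its 22823 genes, and all 43 were among the 20249 genes that passed the filter on low counts. Cfd, the factor D protease that is made mainly by fat cells, had no row, and its 7 exon bins held 25 counts, spread over 5 of the 34 exon files used. The SCN table held 11 of the genes among its 15759.

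RNA-seq was done on liver and SCN of C57BL/6J mice aged 8 to 12 weeks, a wild-type inbred strain with no transgene. Mice ate a diet deficient in methionine and choline (MCD) or an isocaloric control diet for 11 days, freely and singly housed, and all of them spent 10 days in a light-dark cycle before a last day of constant darkness. They were killed at 6 circadian times (CT), 4 h apart from CT00 to CT20. A tissue, a diet and a time define a group, which gives 24 groups of 3 libraries, made from 2 males (numbers 1 and 2) and 1 female (number 3), so that each diet and tissue had 12 male and 6 female libraries. The female was number 3 in every group, so sex and this number cannot be told apart, and the protocol names only males, whereas the labels of the samples give the females; the latter were followed. The liver was sampled from the left lobe and the SCN by laser microdissection, and libraries were made from polyadenylated RNA. The columns of the control males at CT08 share a name, and are told apart here as a and b of control CT08.

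Complement is a cascade of plasma proteins. It starts from antibody-bound C1, from mannose-binding lectins on sugars, or by spontaneous turnover of C3, and each route builds a convertase that cleaves C3 and then C5. The larger fragment of C5 then gathers C6, C7, C8 and C9 into a pore in the target membrane. Blood coagulation is a second protease cascade that ends when thrombin turns fibrinogen into fibrin, antithrombin and protein C hold it in check, and plasmin dissolves the clot. Hepatocytes secrete most of these proteins, whereas C1q comes mainly from macrophages and, in the brain, from microglia.

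Liver libraries held 52.6 to 86.7 M counts (median 64.4 M) and SCN libraries 23.3 to 79.8 M (median 57 M). The complement and coagulation genes took 3.26% to 4.76% of the counts of a control liver library (median 4.10%) and 3.34% to 4.24% of an MCD library (median 3.82%). Levels are given as CPM, the count of a gene as a share of the library's total, scaled by trimmed mean of M values (TMM), and changes as log2 differences with their standard error (SE) from edgeR's quasi-likelihood test. A gene is called changed at a Benjamini-Hochberg adjusted p under 0.05 over all genes tested. Control CT08 a stood apart. It was the lowest control library for 23 of the 43 genes and the highest for 4, namely C1qa, C1qb, C1qc and Pros1. Its summed level of 8 Kupffer cell markers was 683 CPM against 282 to 388 CPM in the other control males, and results that rest on it are given with and without it. Among the MCD libraries CT04 1 was the lowest for 17 of the genes and CT12 2 for 9. Liver libraries also fell into 2 kinds by mt-Nd6, a mitochondrial transcript of the light strand. In 21 libraries it lay between 32.82 and 133.2 CPM, 8 of them control and 13 MCD, and in 15 between 379.5 and 1038 CPM, 10 of them control and 5 MCD.

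Promoters are shown for neighbouring genes whose values moved together, the 3 fibrinogen chains and the paired C8a and C8b. RefSeq on GRCm38.p6 gave a promoter for 35 of the 44 genes, and the 250 bases before the start site are printed 5′ to 3′ on the strand of the gene. Fgg lies at chr3:83007474-83007723 and Fga at chr3:83025903-83026152 on the plus strand, and Fgb at chr3:83049864-83050113 on the minus strand. C8b lies at chr4:104766067-104766316 on the plus strand and C8a at chr4:104876399-104876648 on the minus strand. Capitals mark CTGGGA, the core of the interleukin-6 response element, in the fibrinogen genes, and GTTAAT or its complement ATTAAC, the recognition core of HNF1, in the C8 genes.
Fgg: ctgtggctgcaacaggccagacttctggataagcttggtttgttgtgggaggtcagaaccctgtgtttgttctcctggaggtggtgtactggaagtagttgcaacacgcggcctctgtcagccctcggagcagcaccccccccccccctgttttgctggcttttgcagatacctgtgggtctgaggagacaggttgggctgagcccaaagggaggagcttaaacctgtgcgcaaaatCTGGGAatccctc
Fga: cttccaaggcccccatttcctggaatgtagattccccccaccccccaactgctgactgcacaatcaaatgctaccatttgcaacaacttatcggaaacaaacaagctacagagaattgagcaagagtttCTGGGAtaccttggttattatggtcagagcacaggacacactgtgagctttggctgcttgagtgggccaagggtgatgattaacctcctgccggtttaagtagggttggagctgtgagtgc
Fgb: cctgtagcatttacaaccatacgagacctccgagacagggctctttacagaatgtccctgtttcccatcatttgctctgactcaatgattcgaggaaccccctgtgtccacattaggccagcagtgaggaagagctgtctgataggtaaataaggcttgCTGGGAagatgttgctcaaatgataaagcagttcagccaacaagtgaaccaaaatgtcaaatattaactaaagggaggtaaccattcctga
C8b: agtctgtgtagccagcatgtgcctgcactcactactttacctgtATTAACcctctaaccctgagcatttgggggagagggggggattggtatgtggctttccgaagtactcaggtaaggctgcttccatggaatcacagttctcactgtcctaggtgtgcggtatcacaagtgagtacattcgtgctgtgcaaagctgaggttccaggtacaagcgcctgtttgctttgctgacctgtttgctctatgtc
C8a: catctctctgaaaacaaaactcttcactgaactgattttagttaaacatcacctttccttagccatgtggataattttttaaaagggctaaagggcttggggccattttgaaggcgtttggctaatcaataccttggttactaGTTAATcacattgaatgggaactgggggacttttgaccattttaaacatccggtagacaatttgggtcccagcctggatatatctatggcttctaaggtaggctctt
Each motif was searched on both strands, and matches of different motifs may overlap. CTGGGA was found in 14 of the 35 promoters, against 27% of all 32851 promoters in the table. GTTAAT was found in 9 (C4bp, C8a, C8b, F13b, Fga, Fgb, Hc, Proz and Vtn), against 6.43%. TTGCNNAA, a C/EBP-type site, was found in 9 against 9.56%, TTCNNNGAA, a STAT5-type site, in 6 against 7.02%, and TTANNTAA, a D-box-type site, in 6 against 5.43%. CACGTG, the E-box of clock factors, was found in 0, against 6.02%. These matches describe letters only.

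Levels between genes were compared as CPM per kilobase of exon (RPKM), with exon lengths from GENCODE M21. C3, on which all 3 routes converge, had the highest mean level, 1490 RPKM on control and 1720 on MCD. The fibrinogen chains came next on control, with Fga at 1430, Fgg at 1430 and Fgb at 1060 RPKM, followed by Vtn at 868 and Plg at 709. On MCD the chains stood at 968, 928 and 772 RPKM. The lowest of the 43 was Pros1, protein S, at 11.8 RPKM on control and 10.1 on MCD. On control Masp1 (22.7) and C1qc (30.9) came just above it, and on MCD C6 (13.9, from 55.5 on control) and Masp1 (18.7).

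All 43 genes were called for diet in liver, where 46.6% of all genes tested were called. MCD minus control, as the mean over the 6 times, was higher for 4 genes (25.3% of all genes were called higher) and lower for 39 (21.2%). The 4 that rose were C1qa, C1qb, C1qc and C3. The median of the 43 log2 changes was −0.40, against 0.02 for all genes. With library totals in place of TMM the all-gene median became 0.27, a shift of 0.25. The median of the 43 was then −0.15, and 8 were called higher and 22 lower; C2, C4bp, Cfb, Cfi, F5, F9, Pros1 and Serpind1 changed sign, to between 0.01 and 0.11. In bulk tissue, fewer cells of a type and less RNA per cell cannot be told apart.

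**Figure D1:**
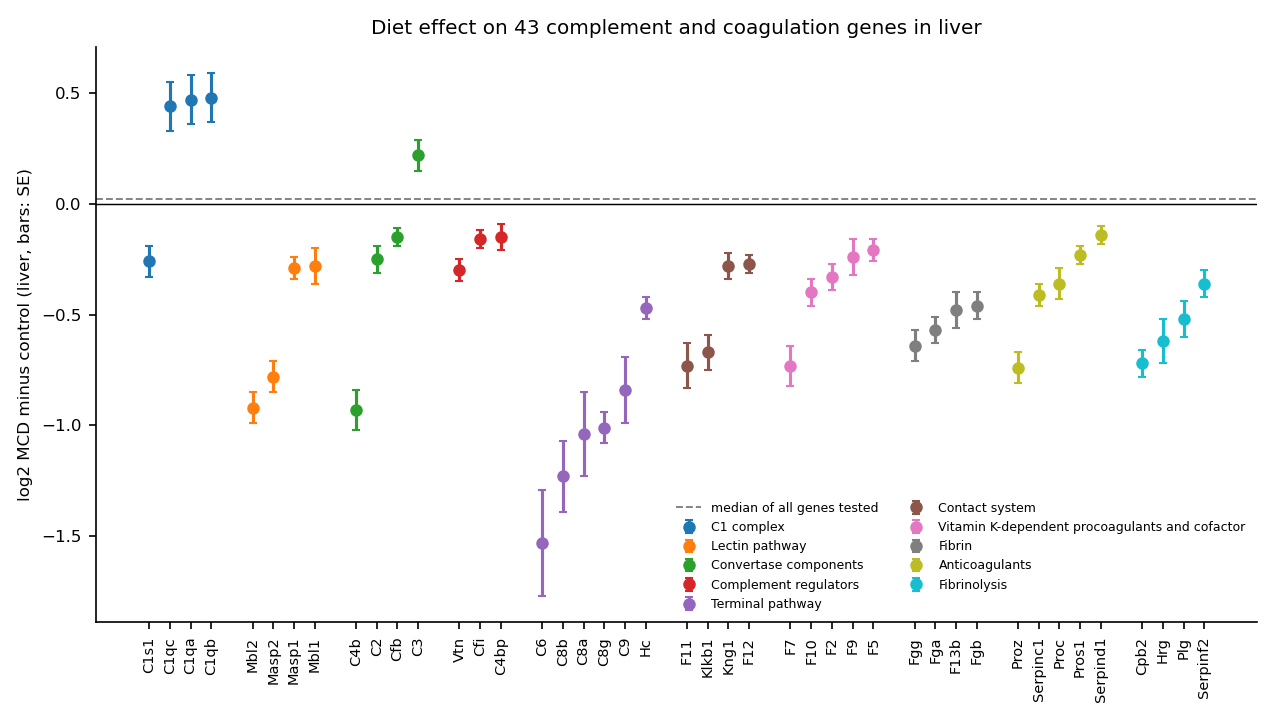
Log2 change on MCD against control in liver (vertical axis) for each of the 43 genes, with bars of 1 SE (36 libraries). Genes are grouped by role along the horizontal axis. C1qa, C1qb, C1qc and C3 lie above 0 and the other 39 below it, with the terminal pathway lowest by its median over both sexes; with library totals in place of TMM, 8 of the 39 lie just above 0.

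The C1 complex was split. The C1q chains, which form the antibody-binding head of C1, rose together, while C1s1, a protease of the same complex, fell. C1qa ranged from 38.9 to 96.4 CPM on control (median 51.2) and from 58.2 to 116 CPM on MCD (median 79.9), a log2 change of 0.47 ± 0.11 (adjusted p = 0.00059). C1qb ranged from 37.7 to 95.4 CPM (median 49) on control and from 54.1 to 122 CPM (median 70.2) on MCD, and rose by 0.48 ± 0.11 (adjusted p = 0.001). C1qc ranged from 42.4 to 104 CPM (median 53.5) and from 58.6 to 121 CPM (median 77.5), and rose by 0.44 ± 0.11 (adjusted p = 0.0014). The groups overlapped for all 3 chains, and control CT08 a was the highest control library for each. MCD CT12 2 (116, 122 and 121 CPM) and MCD CT04 1 (104, 116 and 116 CPM) were the highest MCD libraries for C1qa, C1qb and C1qc. Without control CT08 a, and with these MCD libraries kept, the changes were 0.54, 0.55 and 0.52. C1s1 ranged from 389 to 726 CPM on control (median 631) and from 356 to 630 CPM on MCD (median 517), a change of −0.26 ± 0.07 (adjusted p = 0.00423); it shares exon sequence with an antisense gene and has a near copy, C1s2, so its value is uncertain.

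Macrophage markers moved with C1q. Of 8 Kupffer cell markers 7 were called higher on MCD and 1 was not called, with a median log2 change of 0.41. Their summed level was 282 to 683 CPM in control libraries and 374 to 810 CPM in MCD libraries. Of 7 markers tested for infiltrating or lipid-associated macrophages 6 were higher and 1 was not called, with a median of 1.31 and sums of 74.6 to 233 CPM and 115 to 439 CPM. Within the libraries of low mt-Nd6 the C1q changes were not called, at 0.39 (adjusted p = 0.0777), 0.39 (0.0933) and 0.33 (0.115) for C1qa, C1qb and C1qc. Within those of high mt-Nd6 they were called, at 0.64, 0.70 and 0.65. The part of macrophage number in the C1q result was not tested.

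All 4 genes of the lectin pathway fell. Mbl2, a mannose-binding lectin that recognises sugars on microbes, ranged from 202 to 451 CPM on control (median 264) and from 101 to 243 CPM on MCD (median 137). It fell by 0.92 ± 0.07 on the log2 scale, or 1.89-fold (adjusted p = 6.52e-11). Masp2, the lectin-bound protease that cleaves C4 and C2, ranged from 171 to 352 CPM (median 299) and from 125 to 218 CPM (median 165), and fell by 0.78 ± 0.07 (adjusted p = 2.2e-09). The diets overlapped for both genes, though for Masp2 no longer once control CT08 a was left out. Masp1, the partner protease, ranged from 181 to 286 CPM (median 229) and from 148 to 246 CPM (median 181), a change of −0.29 ± 0.05 (adjusted p = 1.46e-05). Mbl1, the other lectin, changed by −0.28 ± 0.08 (adjusted p = 0.00472). Masp2 shares 1817 bases of exon with Tardbp on the other strand, and whether counting used the strand is not given in the sources used here.

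Among the convertase components C4b fell most. C4b is the component that C1s and Masp2 cleave to build the classical convertase. It ranged from 971 to 2160 CPM on control (median 1770) and from 650 to 1230 CPM on MCD (median 959), and fell by 0.93 ± 0.09, or 1.90-fold (adjusted p = 1.03e-08). The control values overlapped with MCD through control CT08 a, and not without it. The near copy C4a makes the split of reads at this locus uncertain. C2, which C4b binds, ranged from 90 to 174 CPM (median 119) and from 77.8 to 146 CPM (median 104), a change of −0.25 ± 0.06 (adjusted p = 0.000488). Cfb, the counterpart of C2 in the alternative route, changed by −0.15 ± 0.04 (adjusted p = 0.0082). C2 and Cfb are neighbours and share 1656 and 2246 exon bases with Gm20547 on the same strand, so their counts are uncertain. C3 went the other way over both sexes, with a rise in males (0.39) and a value of −0.13 in females that was not called. It ranged from 5960 to 10400 CPM on control (median 7570) and from 7420 to 10100 CPM on MCD (median 8760), a change of 0.22 ± 0.07 (adjusted p = 0.0108) within groups that overlapped widely. C3 was not called within the libraries of low mt-Nd6 (0.19, adjusted p = 0.194) or of high mt-Nd6 (0.23, adjusted p = 0.131).

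The regulators of complement changed little. Vtn, vitronectin, which blocks insertion of the pore, ranged from 1490 to 1990 CPM on control (median 1810) and from 919 to 1650 CPM on MCD (median 1480), and fell by 0.30 ± 0.05 (adjusted p = 5.15e-05). Cfi, the protease that inactivates C3b and C4b, ranged from 533 to 702 CPM (median 569) and from 414 to 584 CPM (median 531), a change of −0.16 ± 0.04 (adjusted p = 0.00125). C4bp, its cofactor for C4b, ranged from 402 to 679 CPM (median 580) and from 381 to 609 CPM (median 515), a change of −0.15 ± 0.06 (adjusted p = 0.0432). That call was lost when any of 13 of the 36 libraries was left out, with adjusted p up to 0.0925. They were control CT00 2, CT04 1 and 2, CT08 b and 3, CT12 1 and 2, CT16 1, CT20 1 and 2, and MCD CT00 3, CT12 2 and CT16 2.

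The terminal pathway, whose proteins form the pore, had a median log2 change of −1.02 over its 6 genes, the lowest of the role groups over both sexes. The median was −1.38 in males, with 6 of 6 genes called lower (17.4% of all genes), and −0.30 in females, with 2 of 6 called lower (12.4%), where fibrinolysis, at −0.80, was the lowest group. C6 ranged from 20.8 to 406 CPM on control (median 235) and from 16.8 to 105 CPM on MCD (median 49.9), and fell by 1.53 ± 0.24, or 2.88-fold (adjusted p = 9.39e-06). C8b, the beta chain of C8, ranged from 65.5 to 592 CPM (median 417) and from 62.9 to 190 CPM (median 140), and fell by 1.23 ± 0.16 (adjusted p = 4.72e-07). C8a, the alpha chain, ranged from 95.9 to 951 CPM (median 702) and from 106 to 338 CPM (median 243), and fell by 1.04 ± 0.19 (adjusted p = 5.08e-05). The wide control ranges of these genes were those of the sexes, as described below. C8g, the gamma chain, was narrower, at 152 to 311 CPM (median 267) and 88.7 to 164 CPM (median 129), and fell by 1.01 ± 0.07, or 2.01-fold (adjusted p = 1.74e-11). C9, which lines the pore in many copies, ranged from 103 to 705 CPM (median 424) and from 97 to 336 CPM (median 210), and fell by 0.84 ± 0.15 (adjusted p = 3.87e-05). Hc, the gene of C5, ranged from 802 to 1160 CPM (median 944) and from 517 to 847 CPM (median 705), and fell by 0.47 ± 0.05 (adjusted p = 1.15e-07). Over both sexes the falls ran from 1.39-fold (Hc) to 2.88-fold (C6).

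The contact system, which starts the intrinsic pathway of clotting on charged surfaces, fell in all 4 genes. F11, factor XI, ranged from 39.4 to 151 CPM on control (median 82.1) and from 34.8 to 94.4 CPM on MCD (median 50.7), and fell by 0.73 ± 0.10 (adjusted p = 1.04e-06). Klkb1, plasma prekallikrein, which lies next to F11, ranged from 207 to 486 CPM (median 340) and from 119 to 282 CPM (median 215), and fell by 0.67 ± 0.08 (adjusted p = 3.56e-07). Its exons overlap a read-through model on the same strand, so its count is uncertain. Kng1, the kininogen that carries prekallikrein, ranged from 1370 to 2250 CPM (median 1890) and from 1340 to 1880 CPM (median 1530), a change of −0.28 ± 0.06 (adjusted p = 0.000612), with reads that a near copy, Kng2, could share. F12, factor XII, which opens the pathway, changed by −0.27 ± 0.04 (adjusted p = 3.1e-06).

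Among the vitamin K-dependent procoagulants and their cofactor, F7 fell most. F7, factor VII, which tissue factor binds to start clotting, ranged from 58.6 to 154 CPM on control (median 110) and from 45.3 to 88.8 CPM on MCD (median 67.3). It fell by 0.73 ± 0.09, or 1.66-fold (adjusted p = 3.3e-07). Its neighbour F10, factor X, ranged from 287 to 508 CPM (median 409) and from 223 to 360 CPM (median 312), and fell by 0.40 ± 0.06 (adjusted p = 7.87e-06). F2, prothrombin, ranged from 1340 to 2080 CPM (median 1790) and from 982 to 1690 CPM (median 1430), and fell by 0.33 ± 0.06 (adjusted p = 3.53e-05). F9, factor IX, changed by −0.24 ± 0.08 (adjusted p = 0.0229) and F5, the cofactor of factor X, by −0.21 ± 0.05 (adjusted p = 0.000562).

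The fibrin genes fell together. Fgg, Fga and Fgb encode the gamma, alpha and beta chains of fibrinogen and sit side by side on chromosome 3. Fgg ranged from 2040 to 4080 CPM on control (median 2940) and from 979 to 2810 CPM on MCD (median 1960), and fell by 0.64 ± 0.07 (adjusted p = 2.47e-08). Fga ranged from 3060 to 5890 CPM (median 4240) and from 1600 to 3900 CPM (median 3130), and fell by 0.57 ± 0.06 (adjusted p = 4.08e-08). Fgb ranged from 2930 to 5430 CPM (median 3910) and from 1460 to 3950 CPM (median 3070), and fell by 0.46 ± 0.06 (adjusted p = 2.04e-06). The diets overlapped for all 3 chains, each of which was also rhythmic. F13b, the carrier chain of the fibrin cross-linking factor XIII, ranged from 137 to 255 CPM (median 224) and from 92.8 to 186 CPM (median 169), and fell by 0.48 ± 0.08 (adjusted p = 1.53e-05).

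All 5 anticoagulants fell. Proz, protein Z, the cofactor of an inhibitor of factor X, ranged from 298 to 553 CPM on control (median 480) and from 202 to 401 CPM on MCD (median 279), and fell by 0.74 ± 0.07, or 1.67-fold (adjusted p = 2.6e-09). Serpinc1, antithrombin, ranged from 1470 to 2530 CPM (median 2030) and from 1180 to 1760 CPM (median 1550), and fell by 0.41 ± 0.05 (adjusted p = 5.88e-07). Proc, protein C, ranged from 314 to 558 CPM (median 476) and from 241 to 445 CPM (median 358), and fell by 0.36 ± 0.07 (adjusted p = 0.00016). Pros1, its cofactor, changed by −0.23 ± 0.04 (adjusted p = 0.00011) and Serpind1, heparin cofactor II, an inhibitor of thrombin, by −0.14 ± 0.04 (adjusted p = 0.00932).

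The 4 genes of fibrinolysis fell, on both the lytic and the inhibitory side. Cpb2, which protects fibrin by trimming it, ranged from 196 to 346 CPM on control (median 307) and from 143 to 235 CPM on MCD (median 182), and fell by 0.72 ± 0.06, or 1.65-fold (adjusted p = 8.16e-10). Hrg, a histidine-rich plasma protein that binds plasminogen and heparin, ranged from 428 to 1210 CPM (median 894) and from 354 to 868 CPM (median 605), and fell by 0.62 ± 0.10 (adjusted p = 1.99e-05). Plg, plasminogen, ranged from 1690 to 3080 CPM (median 2650) and from 1190 to 2250 CPM (median 1880), and fell by 0.52 ± 0.08 (adjusted p = 3.25e-06). Serpinf2, the inhibitor of plasmin, changed by −0.36 ± 0.06 (adjusted p = 3.2e-05).

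No gene of the 43 had all 18 MCD libraries below all 18 control libraries, which held for 0.217% of all genes. Without control CT08 a there were 8 such genes (C4b, C8g, Masp2, F2, F13b, Plg, Serpinc1 and Cpb2), against 0.993% of all genes. Every one of the 43 was called without that library too. Hepatocyte markers did not fall alike. Of the 7 tested 1 was higher, 4 were lower and 2 were not called, with a median of −0.27, and their sums were 95800 to 136000 CPM in control and 71600 to 137000 CPM in MCD libraries. Of 8 periportal markers 1 was higher, 5 were lower and 2 were not called, and of 8 pericentral markers 1 was higher, 1 lower and 6 not called. The part of hepatocyte content in the falls was not tested.

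The diet change had the same sign at all 6 times for most genes, and single times, with 3 libraries a group, gave fewer calls. Of the 43, 32 were called at 1 time or more, all of them lower, against 35.3% of all genes. CT00 had 10 such genes, where 12.6% of all genes were called and 6.02% were lower. CT04 had 27 (18.2% and 8.71%), CT08 had 2 (1.30% and 0.751%) and CT12 had 29 (15.2% and 7.13%). CT16 had 7 (12.5% and 5.99%) and CT20 had 11 (11.3% and 5.60%). With library totals in place of TMM, CT00 had 2 higher and 6 lower, CT12 had 4 and 16, CT16 had 4 and 6, and CT20 had 1 and 5. The CT08 group holds control CT08 a, and without this library 16 genes were called at CT08, 17 at CT00 and 15 at CT16. CT04 had 15 without MCD CT04 1, and CT12 had 17 without MCD CT12 2; CT16 had 11 or 12 without either of these. CT00 had 6 without control CT00 2 or MCD CT00 1, CT08 had 1 without control CT08 3 or b or MCD CT08 2 or 3, and CT20 had 4 to 7 without any of its own 6 libraries. Mbl2 and C8g were lower at all 6 times, by 0.77 to 1.04 and by 0.77 to 1.30 on the log2 scale. C4b, Masp2, Proz and Cpb2 were called at 5 times. C1qa, C1qb, C1qc and C3 had a positive value at all 6 times, with no single time called.

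Part of the terminal pathway differed strongly by sex. On the control diet 14 genes were called between females and males (9.87% of all genes), 7 higher in females (5.36%) and 7 lower (4.51%). Males had more C6, C8a, C8b and C9. C6 lay between 122 and 406 CPM in the 12 control males (median 306) and between 20.8 and 27.9 CPM in the 6 control females (median 22.1), a log2 difference of −3.61 ± 0.23, or 12.2-fold (adjusted p = 2.92e-11). C8a lay between 571 and 951 CPM in males (median 820) and between 95.9 and 188 CPM in females (median 125), a difference of −2.63 ± 0.16 (adjusted p = 9.1e-12). C8b lay between 242 and 592 CPM (median 460) and between 65.5 and 121 CPM (median 94), a difference of −2.32 ± 0.18 (adjusted p = 4.79e-10). C9 lay between 325 and 705 CPM (median 565) and between 103 and 166 CPM (median 135), a difference of −1.97 ± 0.18 (adjusted p = 1.27e-08). These 4 were the genes of the 43 for which control females lay wholly below males, against 0.716% of all genes. The other C8 chain, C8g (−0.16), and Hc (−0.21) were not called between the sexes on control.

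The other sex differences on control were smaller. F11 (−0.72 ± 0.15), C2 (−0.45 ± 0.08) and C4bp (−0.34 ± 0.09) were lower in females. Mbl2 (0.66 ± 0.10), F7 (0.53 ± 0.10), C1qa (0.51 ± 0.15), C3 (0.40 ± 0.07), C4b (0.33 ± 0.11), Serpinc1 (0.32 ± 0.07) and Cfi (0.20 ± 0.06) were higher. Mbl2 lay between 202 and 368 CPM in control males (median 240) and between 314 and 451 CPM in control females (median 398). C4b, Cfi and Serpinc1 had all control females above all control males, against 1.03% of all genes. Without control CT08 a C1qa, C1qc and Mbl2 joined them (6 genes, against 1.88%), and C4bp and Proc joined the genes with females wholly below (6 genes, against 1.37%). The C4b call was lost when any of 24 of the 36 libraries was left out, with adjusted p up to 0.119, and was kept without control CT04 1, CT08 a, CT08 b, CT12 1, CT12 3 or CT20 2, or MCD CT04 1, CT04 2, CT04 3, CT08 1, CT08 3 or CT12 2. C1qa was lost without control CT00 1 or the control females at CT00, CT04, CT12 or CT20, C4bp without any control female but that at CT08, and Cfi without those at CT04, CT08 or CT20. Without control CT08 a 21 genes were called in place of 14. With library totals 11 were higher and 7 lower. The Kupffer marker sum, which moves with C1qa, had a median of 338 CPM in control males and 467 CPM in control females; its part was not tested.

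For C6, C8a, C8b and C9 the difference between the sexes was smaller on MCD. There 7 genes were called between the sexes (2.23% of all genes), with C6 (−1.64 ± 0.20), C8b (−1.11 ± 0.16), C8a (−0.96 ± 0.14), C9 (−0.92 ± 0.17), C2 (−0.37 ± 0.08) and Cpb2 (−0.31 ± 0.08) lower in females and Mbl2 (0.49 ± 0.10) higher. Without control CT08 a 11 were called. C2 was lost without the MCD female at CT08 or CT16, and Cpb2 without MCD CT00 2, CT08 1 or CT16 1 or the MCD females at CT00, CT08, CT16 or CT20. C6 lay between 40.5 and 105 CPM in the 12 MCD males (median 59) and between 16.8 and 23.4 CPM in the 6 MCD females (median 21). C8a lay between 163 and 338 CPM (median 272) and between 106 and 182 CPM (median 131). C8b lay between 83.8 and 190 CPM (median 148) and between 62.9 and 73.7 CPM (median 65.2), and C9 between 124 and 336 CPM (median 241) and between 97 and 148 CPM (median 118). Only C6 and C8b still had all females below all males, against 0.133% of all genes. For C8a and C9 the sexes overlapped.

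**Figure D2:**
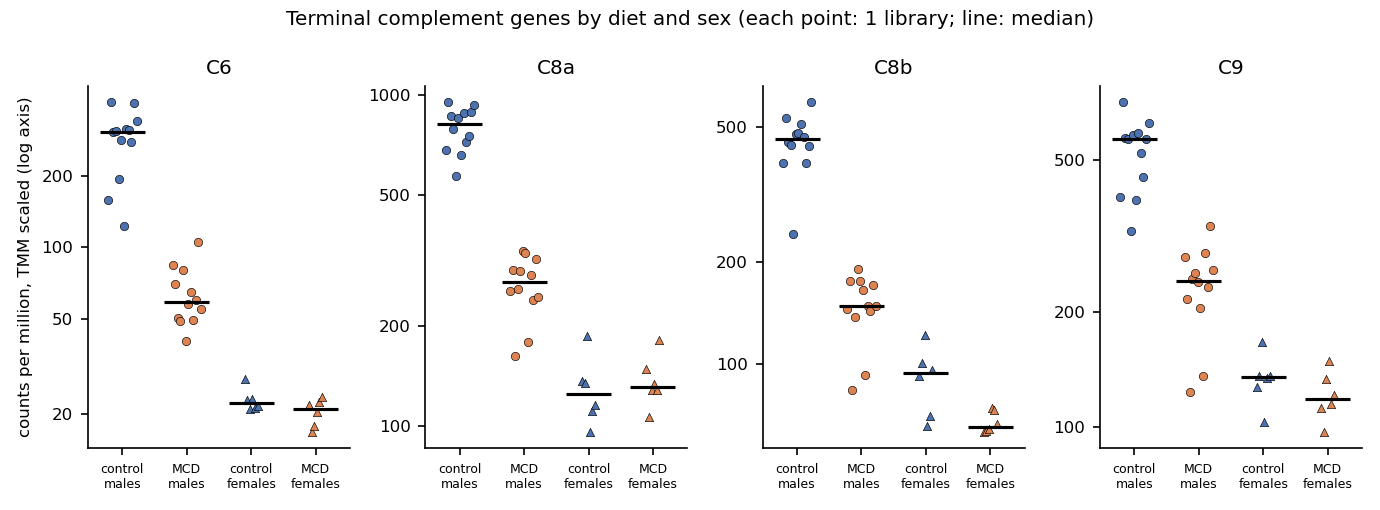
Level of C6, C8a, C8b and C9 in liver in CPM on a log axis, by diet and sex, with 1 point per library (12 males and 6 females a diet) and a bar at the median. Control males have the highest median for each gene, with 1 C9 value, that of control CT08 a, within the range of MCD males, and for C6, C8a and C9 the females of the 2 diets overlap widely.

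The diet change itself differed between the sexes for 7 genes (1.77% of all genes), 4 with the female value above the male value (0.914%) and 3 with it below (0.859%). C6 changed by −2.16 in males and −0.18 in females, a difference of 1.98 ± 0.27 (adjusted p = 0.000177). C8a changed by −1.58 and 0.08, a difference of 1.66 ± 0.20 (adjusted p = 3.33e-05). C8b changed by −1.63 and −0.42 (difference 1.20 ± 0.22, adjusted p = 0.00336) and C9 by −1.18 and −0.13 (difference 1.05 ± 0.23, adjusted p = 0.0147). In males all 4 falls were called, and in females none was. C8g (−1.0 in males and −1.01 in females) and Hc (−0.48 and −0.46) fell by like amounts in both sexes, so the terminal pathway held both kinds of gene.

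For the other 3 the change was more negative in females. C4b changed by −0.72 in males and −1.36 in females, a difference of −0.64 ± 0.15 (adjusted p = 0.0237). F7 changed by −0.51 and −1.17, a difference of −0.66 ± 0.14 (adjusted p = 0.0145). C3 rose by 0.39 in males, from a range of 5960 to 8220 CPM (median 6650) to one of 7860 to 10100 CPM (median 8950). In females it lay between 7570 and 10400 CPM on control (median 9200) and between 7420 and 9270 CPM on MCD (median 8280), a change of −0.13 that was not called, and the difference was −0.52 ± 0.10 (adjusted p = 0.00579). The C4b difference was lost without the females of control CT08, control CT20, MCD CT00 or MCD CT08, with adjusted p up to 0.0688. With library totals in place of TMM 4 of the called differences were positive and 7 negative. Within the libraries of low mt-Nd6 C8a alone was called (1.66, adjusted p = 0.0494), and within those of high mt-Nd6 none, with values of 2.22 for C6, 2.23 for C8a, 1.97 for C8b and 2.02 for C9; 1 MCD female library was of the high kind.

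In males 38 genes were called for diet (39.6% of all genes), 4 higher (22.2%) and 34 lower (17.4%), or 7 and 21 with library totals. In females 28 were called (24.8%), all lower (12.4%), or 1 higher and 21 lower with library totals; of these Cfi, F11, Pros1 and Vtn were lost without 1 of 2 to 6 of the female libraries, with adjusted p up to 0.122. C6, C8a, C8b and Mbl2 had all 12 MCD males below all 12 control males, against 0.484% of all genes. Without control CT08 a 17 genes did so (2.18%), and C1qa, C1qb and C1qc had all MCD males above the other 11 control males (2.31%). In females 20 genes had all 6 MCD libraries below all 6 control libraries, against 5.51% of all genes. C1qa lay between 38.9 and 96.4 CPM in control males (median 49.2), 58.2 and 116 CPM in MCD males (median 76.3), 56.2 and 90.3 CPM in control females (median 69.8) and 68.7 and 93.5 CPM in MCD females (median 82.1). The C1q chains were not called in females, at 0.19, 0.24 and 0.21, and their difference between the sexes was not called either.

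**Figure D3:**
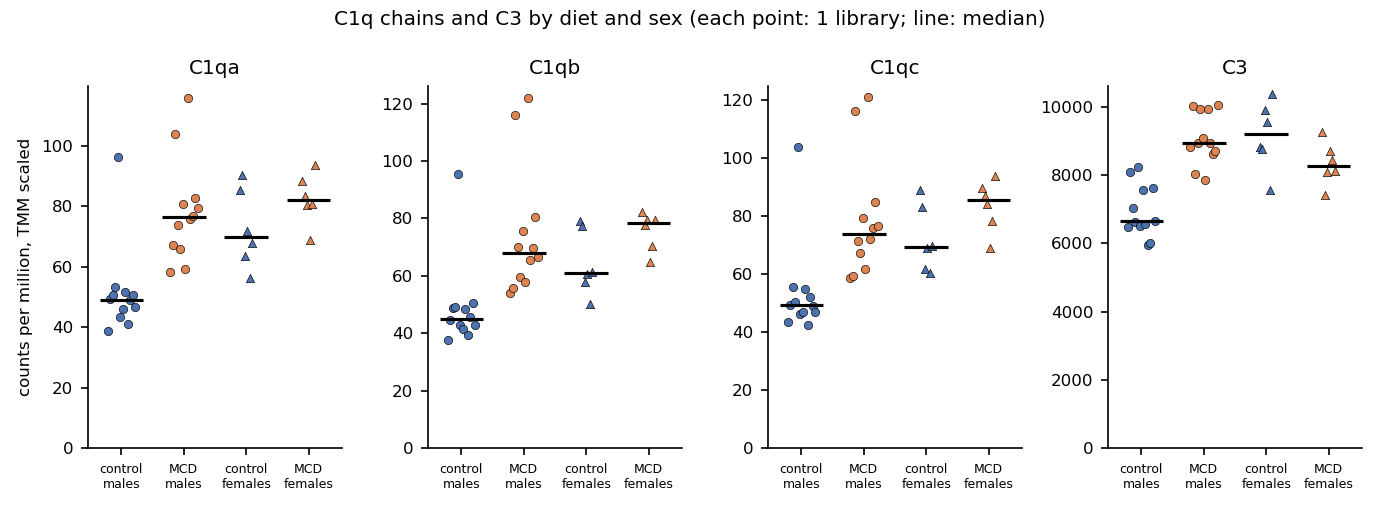
Level of C1qa, C1qb, C1qc and C3 in liver in CPM, by diet and sex, with 1 point per library and a bar at the median. For each gene control males have the lowest median, with control CT08 a as the single high C1q point, and the 2 female groups overlap.

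**Figure D4:**
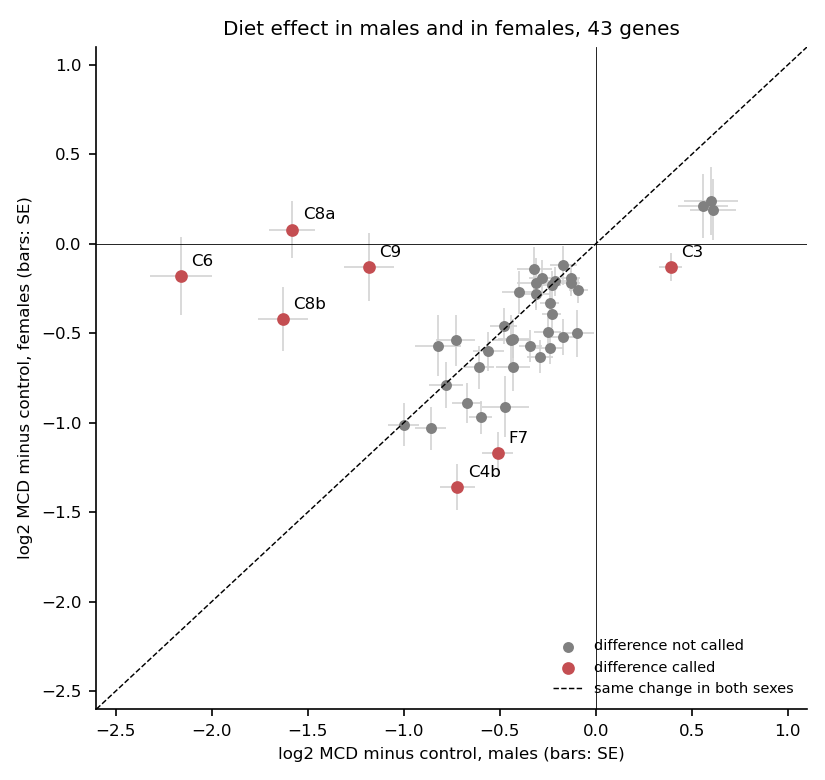
Log2 change on MCD in females (vertical axis) against that in males (horizontal axis) for the 43 liver genes, with the line of equal change; both axes rest on separate libraries. C6, C8a, C8b and C9 lie far above the line, and C4b and F7 lie below it.

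The 24 h rhythm of the genes was modest. A cosine fit over the 6 times gave a range, from trough to peak, with a median of 0.24 log2 on control and 0.25 on MCD, against 0.43 and 0.47 for all genes. On control 9 genes were called rhythmic (17.8% of all genes), namely Masp1, Mbl1, Mbl2, F5, Fga, Fgb, Fgg, Pros1 and Serpinf2. On MCD 10 were called (28.2%), namely Masp1, Mbl2, F5, Fga, Fgb, Fgg, Klkb1, Pros1, Serpind1 and Serpinf2. The control call of Mbl2 was lost when any of 12 control libraries was left out, which were all but CT00 1, CT04 1, CT04 2, CT08 b, CT12 2 and CT16 2. That of F5 was lost without control CT00 1, CT00 3, CT08 b, CT08 3, CT12 1, CT20 1 or CT20 2, and its MCD call without MCD CT04 3, CT08 1, CT08 2 or CT20 2. With the replicate number as a block, the control calls of Mbl2 and Pros1 were lost.

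Fgg had the widest swing of the genes called on either diet, and Fga and Fgb swung at like hours. Mean Fgg was 3800, 3870, 2550, 2460, 2190 and 3040 CPM from CT00 to CT20 on control, and 2570, 2040, 1750, 1180, 1680 and 2440 CPM on MCD. Its fitted range was 0.84 log2 on control with a peak at 1.5 h (adjusted p = 0.000275) and 1.01 on MCD with a peak at 23.6 h (adjusted p = 1.4e-05). Mean Fga was 5320, 5480, 3900, 3900, 3100 and 4150 CPM on control, against 3720, 3410, 2880, 1850, 2390 and 3240 CPM on MCD. The lowest mean of both chains was thus at CT16 on control and at CT12 on MCD. The fitted range of Fga was 0.74 with a peak at 2.3 h (adjusted p = 0.000542) and 0.92 with a peak at 0.8 h (adjusted p = 1.88e-05). Mean Fgb was 4750, 5270, 3760, 3600, 2990 and 3780 CPM on control, against 3670, 3010, 2790, 1890, 2760 and 3540 CPM on MCD, with ranges of 0.72 (peak at 2.7 h) and 0.81 (peak at 23.4 h). The MCD change of Fga, Fgg and Fgb was largest at CT12, at −1.07 ± 0.15 for Fga, −1.06 for Fgg and −0.93 for Fgb, and for Fgb it was −0.10 at CT20, where it was not called.

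Serpinf2, the plasmin inhibitor, moved like fibrinogen over the day. Its means were 725, 907, 725, 545, 504 and 658 CPM on control, against 665, 615, 549, 340, 444 and 590 CPM on MCD, with ranges of 0.76 (peak at 3.2 h) and 0.87 (peak at 0.9 h). Mbl1 swung by 0.74 on control with a peak at 23.2 h and was not called on MCD. Klkb1 swung by 0.72 on MCD with a peak at 1.8 h and was not called on control. Neither Mbl1 nor Klkb1 was called for a difference between the diets. Pros1 (0.46 and 0.43), Masp1 (0.40 and 0.45), F5 (0.34 and 0.33) and Mbl2 (0.46 and 0.53) peaked between 5.6 and 10.0 h on the 2 diets.

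The rhythm differed between the diets for Serpind1, the thrombin inhibitor (1 of 43, against 4.87% of all genes). Its means were flat on control, at 500, 524, 536, 478, 466 and 476 CPM, and dipped on MCD, at 531, 468, 458, 334, 430 and 504 CPM. At CT12 the 3 control libraries held 474, 469 and 492 CPM and the MCD libraries 341, 323 and 337 CPM, a change of −0.52 (adjusted p = 0.00241). The difference of the fitted curves had a range of 0.53 log2 (adjusted p = 0.0294), and the call was lost without control CT00 2, CT20 1 or CT20 2 or MCD CT00 1 or CT20 2, with adjusted p up to 0.0556. The fibrinogen chains did not reach the threshold, with 0.65 for Fgb (adjusted p = 0.0816), 0.50 for Fgg (0.236) and 0.37 for Fga (0.406). Without control CT08 a Fgb was called too, at 0.72 (adjusted p = 0.0359). With library totals 3 genes were called, namely Serpind1 (0.55), Fgb (0.72) and Fgg (0.57), and DESeq2 called 2.

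**Figure D5:**
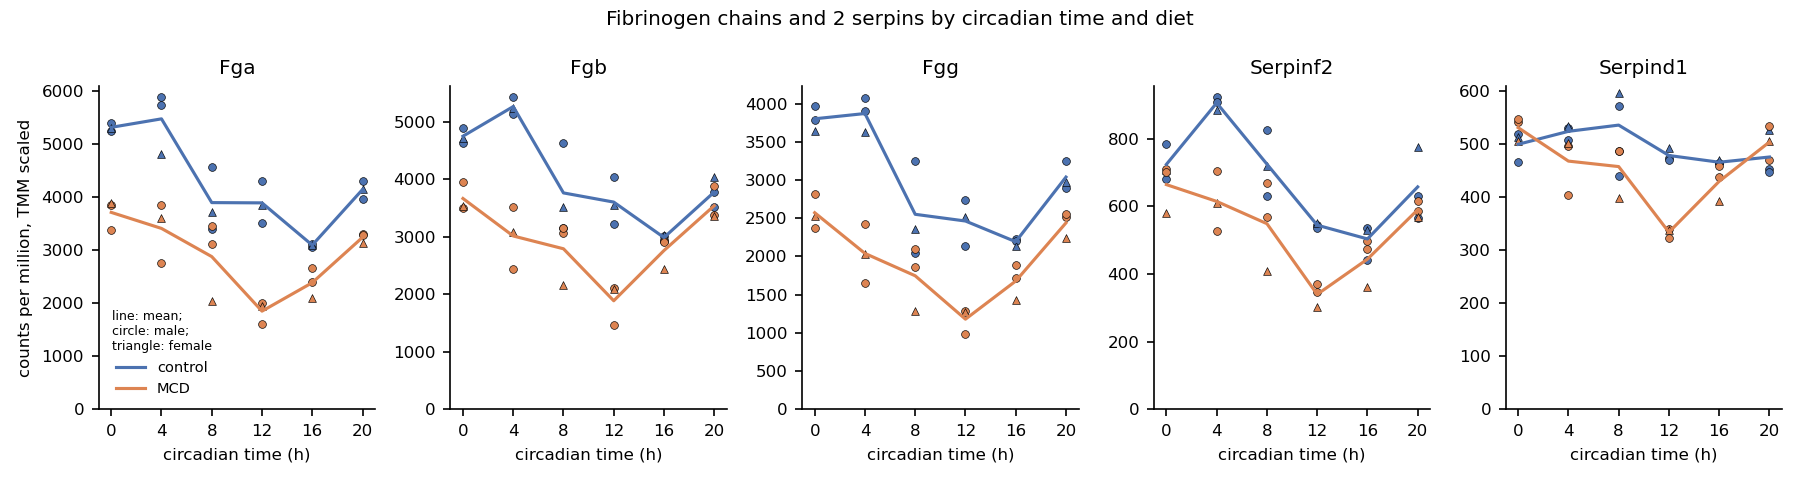
Level of Fga, Fgb, Fgg, Serpinf2 and Serpind1 in liver in CPM against circadian time in h, with 1 point per library (circles for males, triangles for females) and lines through the group means of control and MCD (3 libraries a group). On control the fibrinogen chains and Serpinf2 are high near CT00 to CT04. On MCD the means of Fga and Serpinf2 are highest at CT00 and CT04, and those of Fgb and Fgg at CT20 and CT00. Serpind1 dips at CT12 on MCD.

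Exon bins of a gene can move apart from the rest of that gene. Diet changed bin usage in 5 genes by edgeR's diffSpliceDGE, against 4.50% of the 11694 genes tested. Masp1, which gives 2 proteases and a catalytically inactive protein by alternative splicing, had the clearest shift in a well-covered bin. Its bin 7 of 22 took 11.5% to 19.8% of the counts of the gene on control (median 14.3%) and 13.8% to 22.9% on MCD (median 19.3%), a relative log2 change of 0.38 (adjusted p of the gene 0.00019). The other bins were small. Bin 8 of Fga went from a median of 1.12% to 0.75%, bin 1 of Fgg from 0.176% to 0.317%, bin 16 of Kng1 from 2.58% to 3.31% and bin 9 of Serpinc1 from 0.193% to 0.291%. Fgg and Serpinc1 overlap a gene on the other strand, and Kng1 was not called by the gene-level F test (adjusted p = 0.18). Serpinc1 and Fgg were called with any replicate number left out. Masp1 was lost without number 2, Fga without number 3, and Kng1 without any of the 3 numbers. The bins carry no transcript names in the files used here.

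Further genes of the 2 cascades were counted beside the 25.3% of all genes called higher and the 21.2% called lower. Of 31 further complement genes tested 8 were called higher on MCD, 17 lower and 6 not, with a median of −0.17. Susd4 (−1.88) and Colec12 (−1.10) fell, and the receptors C5ar1 (1.53) and C3ar1 (1.01) and the complement receptor integrins Itgax (2.10), Itgam (1.02) and Itgb2 (1.00) rose. C1rb rose by 4.73 ± 1.76, with libraries from 0 to 96.6 CPM on both diets and a near copy in C1ra, so its value is uncertain. Of 33 further coagulation and fibrinolysis genes 9 were higher, 14 lower and 10 not called, with a median of −0.08. Plaur (1.92), the urokinase receptor, Anxa2 (1.78), a plasminogen-binding protein, and F13a1 (1.40), the catalytic chain of factor XIII, rose, while Serpine2 (−1.51) and Serpina1e (−2.63, a gene with near copies) fell. Serping1 is counted in both lists.

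Hepatocyte regulators and acute phase genes were counted in the same fit. Of 22 hepatocyte transcription factors 1 was higher, 7 were lower and 14 were not called, with a median of −0.20. Onecut1 fell by 1.46, and Hnf4a, a central regulator of hepatocyte genes, had a value of 0.08 that was not called. Of 17 genes of interleukin-6 signalling and the acute phase 5 were higher, 4 lower and 8 not called, with a median of −0.08. Lcn2 (2.49), Apcs (1.88) and Saa3 (1.29) rose. The shares of the acute phase list are near those of all genes (25.3% higher and 21.2% lower). Those of the transcription factors are not, with 1 of 22 higher and 7 lower.

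Other cell types were counted by their markers. Adipocyte markers were near absent, with 2 of 8 tested and no row for Adipoq, Lep, Retn, Plin1, Aqp7 and Cidea, and the missing Cfd row stands beside this. Of 5 red cell genes 4 were lower and 1 was not called, with sums of 130 to 453 CPM in control and 93.7 to 273 CPM in MCD libraries. Of 4 platelet genes 1 was lower (Gp1bb) and 3 were not called. Sinusoidal endothelium had 3 higher, 1 lower and 4 not called, stellate cells 2, 1 and 5, and cholangiocytes 1, 0 and 5. The part of these cells in the results was not tested.

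In the SCN the 11 measured genes were at low levels. Pros1 was the highest, at 29.2 to 78.9 CPM (median 42), and C1qa, C1qb and C1qc had medians of 24.4, 23.9 and 22.9 CPM. Vtn had 20.1, C4b 13.4, C3 6.97, Masp1 2.69, C2 2.01, Hc 1.85 and F5 1.24 CPM. The neuronal gene Snap25 lay between 845 and 1150 CPM in every SCN library, and the liver gene Alb between 0.587 and 26.3 CPM. Diet changed 0 of the 11 by edgeR's quasi-likelihood test (0.0635% of all SCN genes), 1 at an unadjusted p under 0.05 (C4b, 0.25 ± 0.10), and 0 by DESeq2. Sex was called for 0 of the 11 (9.89%), with C1qa (0.22) and C3 (0.38) at an unadjusted p under 0.05, and for 0 by DESeq2. Microglia marker sums were 116 to 170 CPM in control and 123 to 182 CPM in MCD libraries, with no marker called for diet.

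Some of these genes were rhythmic in the SCN. Over both diets 5 of the 11 were called rhythmic (34.4% of all SCN genes). Pros1 swung by 1.13 log2 with a peak at 7.4 h (adjusted p = 5.23e-12), close to its peak hours in liver of 9.6 h on control and 8.5 h on MCD, where it swung by 0.46 and 0.43. Vtn swung by 0.49 with a peak at 23.0 h, C1qb by 0.38 with a peak at 1.9 h and C1qc by 0.36 with a peak at 0.9 h. Hc swung by 1.26 with a peak at 2.6 h at a median of 1.85 CPM (adjusted p = 0.0462), a call kept in 9 of 36 fits that left out a library. The number called was 3 without control CT12 1.

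The diet change differed between liver and SCN for 8 of the 11 genes (34.7% of the 14491 genes in both tables), 3 positive (18.9%) and 5 negative (15.8%). Liver minus SCN, it was −1.18 ± 0.14 for C4b (adjusted p = 5.87e-09), −0.70 ± 0.20 for C2, −0.60 ± 0.21 for Hc, −0.29 ± 0.07 for Pros1 and −0.29 ± 0.11 for Vtn. It was 0.54 ± 0.13 for C1qc, 0.49 ± 0.13 for C1qa and 0.43 ± 0.14 for C1qb. C3 (0.39), Masp1 (−0.37) and F5 (−0.34) were not called. The fit treats liver and SCN libraries as independent, since the labels do not say which came from 1 mouse. With library totals 4 were called positive and 2 negative in place of 3 and 5. Hc (−0.45, adjusted p = 0.0697), Pros1 (−0.14, adjusted p = 0.172) and Vtn (−0.14, adjusted p = 0.297) were not called then, and C3 was (0.55, adjusted p = 0.0137). The calls also changed with the replicate number left out. Without number 1 of each group 3 were called (C4b, C2 and Pros1), without number 2 there were 2 (C4b and Pros1), and without number 3 all 8; the columns a and b of control CT08 have no number and stayed in all of these fits.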

How the data were processed

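RNA-seq of 72 libraries, 36 from liver and 36 from SCN, was analysed. The authors deposited whole-number counts per gene in 1 table per tissue, taken here as not normalized, and counts per exon bin in separate files. Of the exon files 34 complete ones from liver were used, 1 per library. No file of the control males at CT00 was among them, so the female alone stood for that group in the exon tests. The submitters' processing notes name Trimmomatic, HISAT2, StringTie, DESeq2 and the build GRCm39, with no role or version. For the annotation release and the strand setting of counting, nothing is given in the sources used here. Positions, exon overlaps and lengths come from GRCm38.

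The counts were tested with edgeR 4.0.16 in R 4.3.3 (TMM, filterByExpr with a minimum count of 10, robust quasi-likelihood F tests). Each tissue had 1 model of 12 groups of diet and time with sex as a term, and a second with sex by diet. Replicates were taken as separate mice, for which the labels give a number and a sex. The diet effect is the mean over 6 times, and a rhythm is the joint test of the 24 h cosine and sine contrasts. Adjusted p-values (Benjamini-Hochberg) are over all genes tested. Exon bins were tested with diffSpliceDGE. The tests of diet, diet by sex, control rhythm and exon usage were tried on simulated data, and the other steps were not. Alternatives were DESeq2 1.42.0, its size factors, library totals, no filter, the kind of library by mt-Nd6, each library left out, and the replicate number as a block.

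The genes and lists were chosen with earlier results of these data known. In each role the called genes are named, with full values for the 3 largest changes and any of at least 0.5 log2, and genes of other lists where called and changed by at least 1 log2; a few of the latter are not reported here. Same-numbered libraries did not all deviate together (14 of 16 pairs over a correlation of 0.1, the lowest at 0.05), so the numbers were not taken as pairs.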

Additional observations from a re-analysis of the deposited data

Results flagged for a closer look

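Among the 6 control females, CT00 3 held 27.9 CPM of C6 against 20.8 to 23.1 CPM in the others, a gap wide for the group; chance gives such a gap in about 1 in 20 groups, and 86 groups were looked at.

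The diet change in females minus that in males differed from 0 for C6 (1.98), C8a (1.66), C8b (1.20) and C9 (1.05), and for C3 (−0.52), C4b (−0.64) and F7 (−0.66). C6, C8a, C8b and C9 fell in males alone by the calls. C4b and F7 fell in both sexes and more in females, and C3 rose in males alone. The rhythm of Serpind1 differed between the diets by a range of 0.53 log2. The diet change in liver minus that in SCN was positive for C1qa (0.49), C1qb (0.43) and C1qc (0.54) and negative for C2 (−0.70), C4b (−1.18), Hc (−0.60), Pros1 (−0.29) and Vtn (−0.29), of which Hc, Pros1 and Vtn were not called with library totals.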

How the results depend on the processing

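The diet calls of the 43 liver genes kept direction and threshold for all 43 under DESeq2, its size factors and the replicate block, and for 42 with no filter or with a term for the kind of library. Within the low mt-Nd6 kind 31 and within the high kind 32 were called. With library totals C2 (0.01), C4bp (0.11), Cfb (0.11), Cfi (0.09), F5 (0.05), F9 (0.01), Pros1 (0.02) and Serpind1 (0.11) changed sign. Library totals gave 11 in place of 7 for the diet change by sex, 14 in place of 9 for the control rhythm, and 3 in place of 1 for the rhythm difference (Fgb 0.72, Fgg 0.57 and Serpind1 0.55); DESeq2 gave 2 for the last. Within the low and high kinds the sex calls on control were 4 and 7 in place of 14, and the sex by diet calls 1 and 0 in place of 7, with fewer libraries in each fit.

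With each library left out, the counts ran from 42 to 43 for diet (43 with all), 29 to 36 at single times (32), 10 to 21 for sex on control (14), 5 to 11 for sex on MCD (7), 6 to 8 for diet by sex (7), 7 to 11 and 9 to 13 for the rhythm on control (9) and MCD (10), and 0 to 2 for its difference (1). In SCN they ran from 0 to 0 for diet, 0 to 1 for sex (0) and 3 to 7 for rhythm (5). With a number left out they ran from 2 to 8 for liver against SCN (8) and 3 to 5 for exon usage (5). The highest count of each liver comparison run by single libraries came, alone or tied, without control CT08 a; the cause was not tested.

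The replicate block, which leaves out columns a and b of control CT08 in the gene tables since they carry no number, gave 43 for diet, 35 at single times, 8, 12 and 1 for the rhythms on control, on MCD and their difference, 0 and 5 in SCN, 8 for liver against SCN and 6 for exon usage. Of the 9 control rhythms 7 were called under it too, while Mbl2 (adjusted p = 0.206) and Pros1 (0.0575) were not. It was not run for sex, since number 3 is always the female. Over all genes DESeq2 called 741 against 359 for diet by sex, 2016 against 986 for the rhythm difference, 832 against 452 for sex on MCD and 48 against 10 for diet in SCN. The block called 4 against 10 for diet in SCN and 651 against 986 for the rhythm difference. Within the low and high kinds diet called 4583 and 5042 against 9426, sex on control 151 and 376 against 1999, and diet by sex 8 and 7 against 359.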

Other observations

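Some genes outside the complement and coagulation list also changed unlike between the sexes; they come from the counted lists and were singled out after their values were seen. Cux2, a female-biased repressor in liver, lay between 0.369 and 2.58 CPM in control males (median 0.667) and between 53.1 and 104 CPM in control females (median 66.8). On MCD it lay between 0.646 and 14.9 CPM in males (median 2.59) and between 5.28 and 46.5 CPM in females (median 30.4). Its rise in males was 2.07 ± 0.46 (adjusted p = 0.00104), its value in females −1.57 ± 0.58 (adjusted p = 0.0511, not called) and the difference −3.63 ± 0.76 (adjusted p = 0.0122). Bcl6, a male-biased repressor, fell by 1.27 ± 0.27 in males, from a median of 28.5 to 9.89 CPM, and had a value of 0.10 in females, with a difference that was not called (1.37 ± 0.48, adjusted p = 0.182).

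Apcs, serum amyloid P, a plasma pentraxin that binds C1q and C4b-binding protein, rose in both sexes, and C4b fell in both. It lay between 39.4 and 75.9 CPM in control males (median 55.4) and between 137 and 419 CPM in MCD males (median 258), and rose by 2.26 ± 0.12. In females it went from a median of 104 to 191 CPM, a rise of 1.11 ± 0.16, and the difference was −1.15 ± 0.20 (adjusted p = 0.00218).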
